A study of Mus musculus with 6 samples.

Results

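The platelet-derived growth factor (PDGF) family was read from RNA-seq counts of mouse cardiac fibroblasts as the 4 ligand genes *Pdgfa*, *Pdgfb*, *Pdgfc* and *Pdgfd* and the 2 receptor genes *Pdgfra* and *Pdgfrb*. The members were chosen by gene symbol, and all 6 were found among the 34745 genes of the deposited table. *Pdgfa* and *Pdgfb* were higher in the libraries labelled KO than in those labelled WT, both receptor genes were lower except under a scaling on marker genes that leaves them near 0, *Pdgfc* was lower but past the threshold in few other settings, and *Pdgfd* did not pass the test. The summed ligand level per unit of receptor level was 1.73-fold higher in the libraries labelled KO, a ratio in which a common scale of the libraries cancels out and which did not pass a threshold of 0.05 (exact permutation p = 0.1, adjusted p = 0.2 over 12 ratios).

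PDGF ligands are secreted dimers that bind 2 related receptor tyrosine kinases on mesenchymal cells. PDGF-A and PDGF-C act mainly through PDGFRα, PDGF-B acts through both receptors, and PDGF-D acts mainly through PDGFRβ. PDGF-C and PDGF-D are released with an inhibitory CUB domain that proteases remove, whereas PDGF-A and PDGF-B are processed before they leave the cell. In the heart, PDGFRα marks fibroblasts, PDGFRβ marks pericytes, smooth muscle cells and activated fibroblasts, and PDGF-B from endothelial cells recruits pericytes to vessels.

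Both groups had undergone myocardial infarction (MI) by a lasting tie around the left anterior descending artery, and fibroblasts were taken from the left ventricle 7 days later. The KO group (3 libraries) came from KDM5B knockout mice, in which CRISPR/Cas9 removed the JmjC-encoding part of *Kdm5b* in the germline, so every cell type of these mice carries the deletion. The WT group (3 libraries) came from littermates without it. All were male mice of 8 to 10 weeks on a C57BL/6 background, no library came from an uninjured heart, and how many mice gave each library is not stated in the sources used here. The cells were isolated without a stated sorting step, and the p-values measure the spread between these libraries, which may be technical.

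Between 12025403 and 15329427 counts per library fell on genes, so 3 counts, the upper limit that a count of 0 allows, came to at most 0.249 CPM (counts scaled to a common library size). *Kdm5b*, the targeted gene, had 98.1, 107 and 105 CPM in KO replicates 1, 2 and 3 and 108, 129 and 123 CPM in WT replicates 1, 2 and 3, a log2 fold change of -0.22 (SE 0.07, edgeR adjusted p = 0.0574). The libraries did not overlap but the gene did not pass the test, and counts per gene include reads from outside the deleted part, so the groups are named by their labels. By Q-PCR and immunoblot, the paper reports hardly any KDM5B in cardiac fibroblasts of the knockout mice. Here the level per gene was only 13.9% lower, and the reason for this difference was not tested. All 16 fibroblast marker genes passed the filter on low counts, with summed FPKM from 4683 to 5462 in the libraries labelled KO and from 6425 to 6807 in those labelled WT. Cardiomyocyte, macrophage and endothelial marker genes were counted as well.

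Positions are given in mm10. *Pdgfa* (ENSMUSG00000025856) is on the minus strand of chromosome 5 from 138976014 to 138997370, and *Pdgfra* (ENSMUSG00000029231) is on the plus strand of the same chromosome from 75152292 to 75198215. *Pdgfb* (ENSMUSG00000000489) is on chromosome 15 from 79995900 to 80014808, *Pdgfc* (ENSMUSG00000028019) on chromosome 3 from 81036416 to 81214040 and *Pdgfd* (ENSMUSG00000032006) on chromosome 9 from 6168612 to 6378843. The genes that overlap *Pdgfc*, *Pdgfd* and *Pdgfra* had between 0 and 5 counts per library, against at least 124 for the member itself. *Pdgfa* overlaps *6330403L08Rik*, which is transcribed from the other strand and had 140 to 213 counts per library against at least 543 for *Pdgfa*. The library kit keeps the strand, but the sources used here do not say whether reads were counted by strand, so reads of these 2 genes may not be fully separated. *6330403L08Rik* did not pass the test (log2 fold change -0.21, edgeR adjusted p = 0.300).

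Start-site sequences were available for 4 of the 6 members from RefSeq (GRCm38.p6, 250 bases before to 50 bases after each start), and those of *Pdgfa* and *Pdgfra* are shown because PDGF-A is a ligand of PDGFRα and the 2 genes moved in opposite directions. For both, the printed bases lie outside annotated exons of the same strand. The *Pdgfa* window is that of a start inside the annotated gene, and from base 138995056 it also lies in the antisense gene *6330403L08Rik*. Between them stands a 30-base stretch of the *Pdgfa* window, of which 21 bases lie in an annotated exon, with its 2 GC boxes in capitals (the letters GGGCGG, here as their reverse complement CCGCCC). The first runs along the minus strand of chr5:138995038-138995194, the second along the minus strand of chr5:138995017-138995046 and the third along the plus strand of chr5:75152001-75152250.
Pdgfa upstream: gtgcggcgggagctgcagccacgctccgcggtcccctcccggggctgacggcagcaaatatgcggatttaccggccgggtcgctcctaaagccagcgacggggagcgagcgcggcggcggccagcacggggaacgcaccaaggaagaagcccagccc
Pdgfa GC boxes: gcccagcccCCGCCCtCCGCCCcttccgtc
Pdgfra upstream: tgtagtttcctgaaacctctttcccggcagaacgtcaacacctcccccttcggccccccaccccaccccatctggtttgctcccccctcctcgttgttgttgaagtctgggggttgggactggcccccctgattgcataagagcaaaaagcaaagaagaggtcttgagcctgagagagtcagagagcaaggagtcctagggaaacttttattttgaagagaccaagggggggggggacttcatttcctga

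The 2 windows differ in their CpG content. The 300-base *Pdgfa* window that holds the GC boxes has 37 CpG pairs, more than 94.4% of the 32851 windows in the table, and its second window has 24. The windows of *Pdgfra*, *Pdgfc* and *Pdgfd* have 5, 8 and 8, close to the median of 7 over all windows. On either strand, GGGCGG was found in both *Pdgfa* windows and in none of the other 3, beside 35.7% of all windows. The AP-1 letters TGACTCA and the CRE letters TGACGTCA, which occur in 5.20% and 1.79% of all windows, were found in none of these 5, and the TATA letters TATAAA, which occur in 13.6%, were found in that of *Pdgfd*. A match describes these letters only.

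Among the ligands, *Pdgfb*, which encodes the PDGF-B chain, had the highest level. Its FPKM, a level per length of transcript, was 23.3, 22.8 and 21.0 in KO replicates 1, 2 and 3 and 14.8, 16.4 and 15.4 in WT replicates 1, 2 and 3. The groups did not overlap, with means of 22.4 ± 1.19 (SD, n = 3) and 15.5 ± 0.82 (SD, n = 3). From the counts, which ran from 622 to 940 per library, *Pdgfb* was 1.41-fold higher, with a log2 fold change at 0.49 (SE 0.07, edgeR adjusted p = 0.0013). It stayed between 0.45 and 0.54 in the 14 alternatives other than a scaling on cardiomyocyte and macrophage marker genes, which gave 0.88. Most endothelial markers (16 of 20, median log2 fold change 2.64) were higher in the same libraries, beside 17.7% of all genes tested.

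*Pdgfa*, which encodes the PDGF-A chain, had FPKM values of 12.6, 9.62 and 10.8 in KO replicates 1, 2 and 3 and of 7.21, 7.71 and 7.42 in WT replicates 1, 2 and 3. The groups did not overlap, and the libraries labelled KO were spread more widely, with KO replicate 1 the highest. The means were 11.02 ± 1.52 (SD, n = 3) and 7.45 ± 0.25 (SD, n = 3). From 543 to 866 counts per library, *Pdgfa* was 1.44-fold higher, with a log2 fold change at 0.53 (SE 0.10, edgeR adjusted p = 0.00448). Without KO replicate 1 the value was 0.43 and the adjusted p was 0.0071, and with the marker scaling the value was 0.92.

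The CUB-domain ligands were the least abundant members. *Pdgfc*, which encodes PDGF-C, had FPKM values of 3.12, 3.77 and 3.97 in KO replicates 1, 2 and 3 and of 4.56, 4.35 and 4.30 in WT replicates 1, 2 and 3. Every library labelled KO was below every library labelled WT, and KO replicate 1 was the lowest. Its log2 fold change stood at -0.31 (SE 0.10, 95% interval -0.54 to -0.09, edgeR adjusted p = 0.0443), which is just past the threshold of 0.05. Of the 14 other settings that keep a scaling over all genes, 10 put *Pdgfc* on the other side of the threshold, with adjusted p-values up to 0.115. Without KO replicate 1 the value was -0.21 (edgeR adjusted p = 0.087).

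*Pdgfd*, which encodes PDGF-D, had FPKM values of 2.54, 2.41 and 2.80 in KO replicates 1, 2 and 3 and of 2.05, 2.29 and 2.41 in WT replicates 1, 2 and 3. The groups overlapped when expressed as normalized CPM. With 124 to 180 counts per library, its log2 fold change stood at 0.17 (SE 0.12, edgeR adjusted p = 0.330). Its 95% interval ran from -0.11 to 0.44, a range that holds 0 and ends below the estimate for *Pdgfb*. Without WT replicate 1 the value was 0.0998 and without KO replicate 3 it was 0.11.

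Both receptor genes were lower in the libraries labelled KO, as were most fibroblast markers (15 of 16, median log2 fold change -0.42) and 7 of 14 macrophage and 7 of 12 cardiomyocyte markers (medians -0.39 and -0.38). These counts stand beside 12.5% of all genes tested, and 2 macrophage markers were higher. The part of cell content in the receptor values was not tested. *Pdgfrb*, which encodes PDGFRβ, lies on the plus strand of chromosome 18 from 61045150 to 61085061 (ENSMUSG00000024620). It was the most abundant member, with a mean level above that of 96.2% of the genes tested. Its FPKM values were 57.0, 60.3 and 59.5 in KO replicates 1, 2 and 3 and 78.1, 75.4 and 78.3 in WT replicates 1, 2 and 3. The gap between the groups was several times the spread within them, with means of 58.9 ± 1.75 (SD, n = 3) and 77.3 ± 1.602 (SD, n = 3). Over 5266 to 8664 counts per library its log2 fold change stood at -0.42 (SE 0.04, edgeR adjusted p = 2.6e-04), a fall of 25.5%. In these bulk samples, fewer cells of a type and less RNA per cell cannot be told apart.

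*Pdgfra*, which encodes PDGFRα, had FPKM values of 12.48, 12.05 and 12.73 in KO replicates 1, 2 and 3 and of 15.03, 14.23 and 16.11 in WT replicates 1, 2 and 3. The groups again did not overlap, and the libraries labelled KO lay closer together than those labelled WT. From 2247 to 3434 counts per library, its log2 fold change stood at -0.32 (SE 0.06, edgeR adjusted p = 0.0036), a fall of 19.8%. The gene length implied by its counts and FPKM is 14968 bases, the longest among the members, so its level per length is low for its count.

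**Figure D1:**
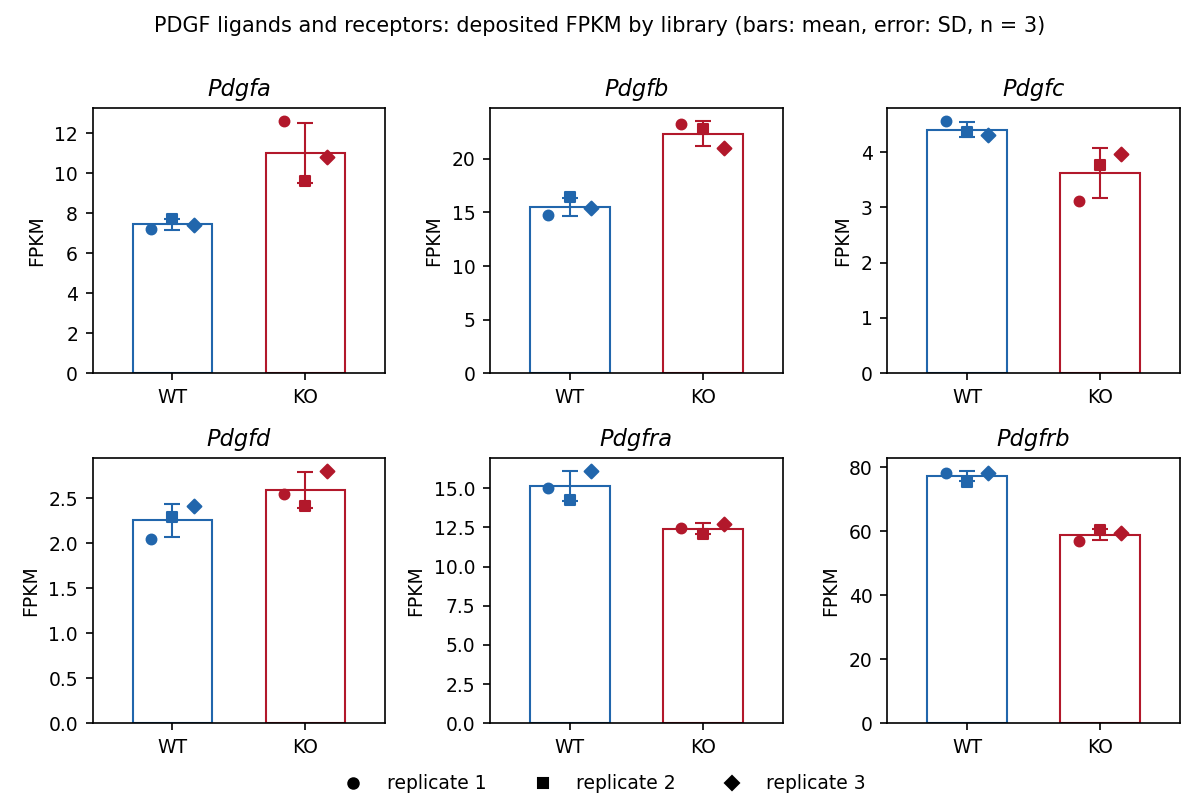
Deposited FPKM of each PDGF gene in the 3 libraries labelled WT (blue) and the 3 labelled KO (red). Bars are means, error bars are SD and each point is a library. *Pdgfa* and *Pdgfb* are higher and *Pdgfc*, *Pdgfra* and *Pdgfrb* lower in the libraries labelled KO without overlap, while the points of *Pdgfd* lie close together.

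Of the 6 members, 2 were called higher and 3 lower (adjusted p threshold 0.05). Among the 14084 tested genes, 30.2% were called, 17.7% higher and 12.5% lower, and the median log2 fold change was -0.02. The libraries of the groups did not overlap in 5 of the 6 members, beside 47.0% of all genes tested. A two-sided exact permutation of the libraries gave p = 0.1 for each of these 5, which is the smallest p that 3 libraries against 3 allow, and p = 0.2 for *Pdgfd*. The changes were moderate among these genes: 13.6% of the genes tested had a larger log2 fold change than *Pdgfb*, and 9.44% had a lower one than *Pdgfrb*.

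The scale of the libraries bears on the direction of the receptors. When scaling instead set the median ratio of macrophage and cardiomyocyte marker genes to 1, the median of all genes moved up by 0.39, 8367 of the 14084 genes were called higher and 45 lower, and *Pdgfra* and *Pdgfc* turned to 0.07 each (edgeR adjusted p = 0.406 and 0.553). *Pdgfrb* was at -0.03 on this scale (edgeR adjusted p = 0.577), and *Pdgfd* rose by 0.56 (edgeR adjusted p = 0.0071). Relative to the median of all genes, *Pdgfrb* stood at -0.41, *Pdgfra* at -0.30, *Pdgfb* at 0.51 and *Pdgfa* at 0.55 under this scaling. The main fit gives the same 4 values relative to its median, because the scaling shifts all genes nearly alike. They are therefore no separate support for the direction of the receptors. *Pdgfa* and *Pdgfb* passed the threshold in the same direction under all 15 alternatives.

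**Figure D2:**
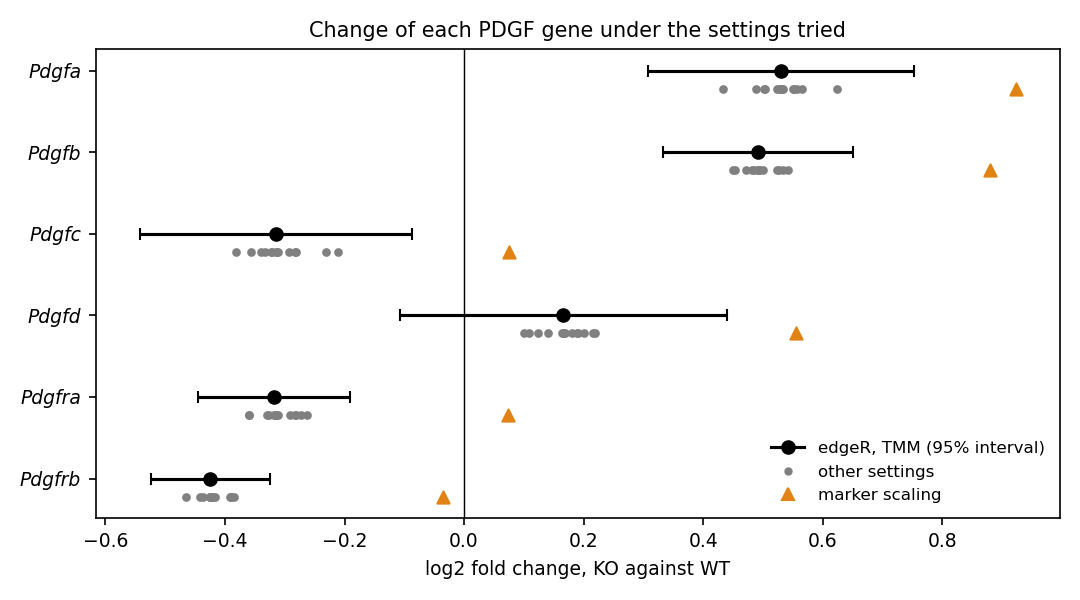
Log2 fold change of each PDGF gene, libraries labelled KO against those labelled WT. Black points are the edgeR fit with TMM normalization and its 95% interval, grey points are the 14 other settings and orange triangles are the scaling on marker genes, which lies to the right of the black points for all 6 genes and leaves *Pdgfra*, *Pdgfrb* and *Pdgfc* near 0.

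The order of the mean levels per length was the same in both groups, but different neighbours in it overlapped. In the libraries labelled WT it was *Pdgfrb*, then *Pdgfb* and *Pdgfra*, whose ranges overlapped, then *Pdgfa*, *Pdgfc* and *Pdgfd*. In the libraries labelled KO it was *Pdgfrb*, *Pdgfb*, then *Pdgfra* and *Pdgfa*, whose ranges overlapped, then *Pdgfc* and *Pdgfd*. *Pdgfb* was 1.03 times the level of *Pdgfra* in the libraries labelled WT and 1.80 times in those labelled KO, and *Pdgfra* was 2.03 times and 1.13 times the level of *Pdgfa*.

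Ratios within a library were compared next, since a common scale cancels out of them. The summed FPKM of the 4 ligands divided by that of the 2 receptors was 0.598, 0.534 and 0.534 in KO replicates 1, 2 and 3 and 0.307, 0.343 and 0.313 in WT replicates 1, 2 and 3. The libraries labelled KO all lay above the libraries labelled WT, by 1.73-fold on the log2 mean. An exact permutation of the libraries (two-sided) gave p = 0.1, the smallest this design allows, and an adjusted p of 0.2 over the family of 12 ratios, so it does not pass a threshold of 0.05. These are transcript ratios of a mixed cell isolate and give no protein amounts.

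The balance of the receptors did not separate the groups. The ratio of *Pdgfra* to *Pdgfrb* was 0.219, 0.200 and 0.214 in KO replicates 1, 2 and 3 and 0.192, 0.189 and 0.206 in WT replicates 1, 2 and 3. The ranges overlapped, with a difference of 0.11 on the log2 scale (exact permutation p = 0.2, adjusted p = 0.3).

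Within the ligand pool the shares of *Pdgfb* and *Pdgfc* did not overlap between the groups. *Pdgfb* made up 56.0%, 59.1% and 54.4% of the summed ligand FPKM in KO replicates 1, 2 and 3 and 51.7%, 53.3% and 52.1% in WT replicates 1, 2 and 3. *Pdgfc* made up 7.50%, 9.77% and 10.3% against 15.96%, 14.2% and 14.6%, a difference of -0.71 on the log2 scale. The share of *Pdgfa* was 24.9% to 30.4% in the libraries labelled KO and 25.1% to 25.2% in those labelled WT, and that of *Pdgfd* was 6.12% to 7.26% and 7.17% to 8.17%, with overlap for both. Over the 12 ratios, the exact permutation p was 0.1 and the adjusted p 0.2 for *Pdgfb* and *Pdgfc*, and the adjusted p was 0.436 and 0.3 for the shares of *Pdgfa* and *Pdgfd*.

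**Figure D3:**
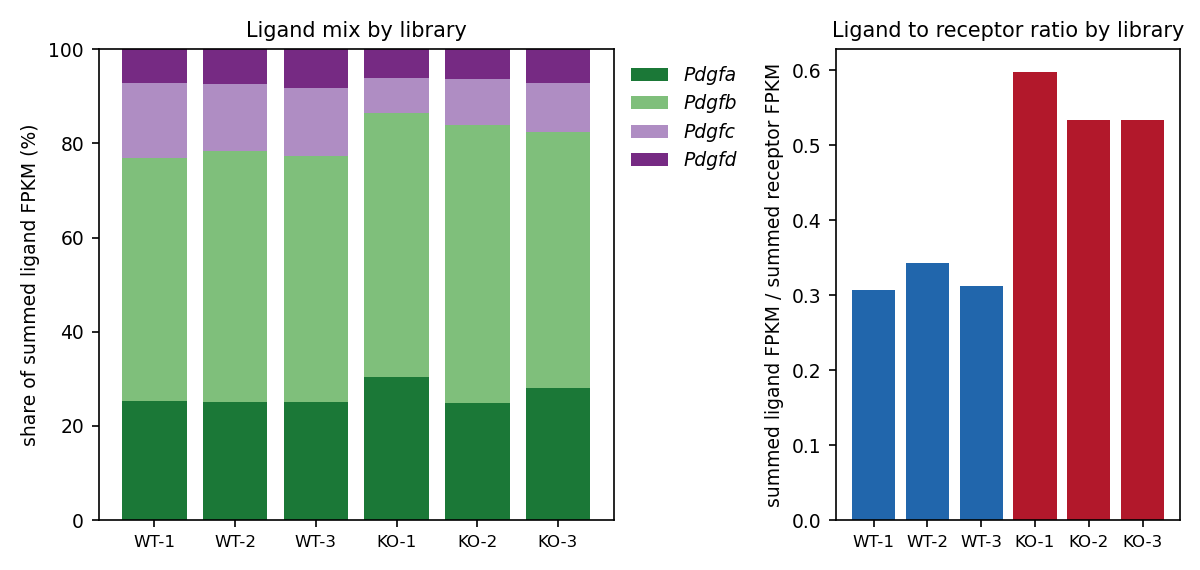
Left, share of each PDGF ligand gene in the summed ligand FPKM of each library (%). Right, summed FPKM of the 4 ligands divided by the summed FPKM of the 2 receptors. The light purple *Pdgfc* share is 7.50% to 10.3% in the libraries labelled KO and 14.2% to 15.96% in those labelled WT, and the ratio is at least 0.534 in the former and at most 0.343 in the latter.

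Most marker genes of the cell types that express these receptors were lower like the receptors, and unlike *Pdgfa* and *Pdgfb*, but 2 of 12 tested mural markers were higher. All marker counts are read beside the 12.5% of all genes that were lower and the 17.7% that were higher, and under the marker scaling 45 of all 14084 genes were lower. Of the 16 fibroblast marker genes, 15 were lower and 0 higher, and their median stood at -0.42 on the log2 scale, and the most abundant, *Col1a1*, *Fn1* and *Col1a2*, stood at -0.44, -0.35 and -0.38. *Pdgfra* per unit of the summed fibroblast markers did not separate the groups (log2 difference 0.10, exact permutation p = 0.4, adjusted p = 0.436), nor did *Pdgfc* (0.09, exact permutation p = 0.3, adjusted p = 0.4). *Pdgfa* and *Pdgfd* per unit of the same sum were 1.92-fold and 1.498-fold higher in the libraries labelled KO without overlap (exact permutation p = 0.1, adjusted p = 0.2 for each). Leaving out 1 library moved the difference for *Pdgfra* to 0.035, 0.17 or 0.044 (without KO replicate 1, KO replicate 2 or WT replicate 2) and that for *Pdgfc* to 0.038 or 0.15 (without KO replicate 3 or WT replicate 1). The part of fibroblast content in these values was not tested.

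Of 15 mural marker genes, which mark pericytes and smooth muscle cells, 12 could be tested, with 7 lower, 2 higher and a median of -0.41. Their summed FPKM was 1739 to 2020 in the libraries labelled KO and 2283 to 2426 in those labelled WT, and most of it was *Acta2* and *Tagln*, which myofibroblasts express as well. The pericyte markers *Higd1b* and *Vtn* had 0 counts in every library, *Kcnj8* had at most 11, and *Rgs5* had FPKM values of 2.02 to 2.86. *Pdgfrb* per unit of the mural sum was 0.0299 to 0.0329 in the libraries labelled KO and 0.0322 to 0.0332 in those labelled WT, with overlap (exact permutation p = 0.5, adjusted p = 0.5). With the mean of log2 marker levels in place of the sum, the log2 difference moved from -0.05 to -0.25. That mean weighs every marker alike, including *Mcam* (log2 fold change 1.38) and *Abcc9*, which were called higher, and the genes with 0 counts. The part of single markers in this move was not tested. With the sum, the log2 difference was 1.7e-05 without KO replicate 2 and -0.07 without KO replicate 3.

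Most endothelial marker genes, read because endothelial cells are a known source of PDGF-B, were higher as well. Of 20 such genes, 16 were higher and 0 lower, their median was 2.64 on the log2 scale, and their summed FPKM was 462 to 621 in the libraries labelled KO against 123 to 125 in those labelled WT. The most abundant, *Cdh5*, *Plvap* and *Pecam1*, stood at 2.31, 2.77 and 3.98. No change passed the threshold in the other 4 genes, *Eng*, *Cldn5*, *Ptprb* and *Sox17*, and the lowest log2 fold change among them was -0.82. *Pdgfb* per unit of the endothelial sum was 0.334-fold as high in the libraries labelled KO, 0.0374 to 0.0494 against 0.120 to 0.132 (exact permutation p = 0.1, adjusted p = 0.2), and the part of endothelial cells in its rise was not tested.

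Other cells known to release PDGF were checked in the same way. Of 10 platelet marker genes, 5 could be tested and 3 were higher, of which *Pf4*, which macrophages can express too, had 20.1 to 29.1 FPKM against 2.45 to 4.06, *Gp1ba* had 20, 11 and 15 counts against 0 in each library labelled WT and *Itga2b* had 45 to 63 counts against 26 to 40. The 2 others tested did not pass, *Ppbp* at 0.23 and *Gp1bb* at -1.18 (edgeR adjusted p = 0.677 and 0.0723), while *Gp5* had at most 3 counts in every library. *Gp1ba* passed the filter on low counts only through the libraries labelled KO, so it could not have been called lower. Of 14 tested macrophage marker genes 7 were lower and 2 higher, with a median of -0.39, with *Lyz2* at -0.42 and *Adgre1* at -0.38 past the threshold and *Cd14* at -0.31 not past it, while *Cd68* (1.38) and *Mertk* (1.04) were the 2 higher, and of 12 tested cardiomyocyte marker genes 7 were lower and 0 higher, with a median of -0.38 and with *Nppa*, *Actc1* and *Myh6* at -0.43, -0.42 and -0.45. Mast cell, lymphocyte and Schwann cell markers had summed FPKM of at most 3.53 in every library, and 1 of 7, 1 of 8 and 3 of 6 of them could be tested, of which the lymphocyte gene *Lck* was higher and the Schwann cell gene *Mbp* lower.

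Of 16 genes that activate or capture PDGF ligands, 8 were lower and 4 higher (beside 12.5% lower and 17.7% higher of all genes). *Plau*, the urokinase that cleaves PDGF-D, was the largest rise, with FPKM values of 195, 92.8 and 115 in KO replicates 1, 2 and 3 and of 8.99, 8.75 and 9.20 in WT replicates 1, 2 and 3 (log2 fold change 3.87, edgeR adjusted p = 3.4e-05). Its receptor gene *Plaur* rose by 0.74 and *Nrp1*, a co-receptor for PDGF and VEGF, by 0.45. *Plat*, the tissue plasminogen activator that cleaves PDGF-C, fell by 0.38, from 28.1 to 29.98 FPKM in the libraries labelled WT to 21.4 to 23.7 in those labelled KO. *Furin*, a convertase that processes PDGF-A and PDGF-B, stood at -0.25, the matrix protein gene *Sparc*, which binds PDGF-B, at -0.36 and the PDGFRβ partner gene *Lrp1* at -0.36, each past the threshold, as did *Pcsk5* (-0.48) and *Thbs1* (-0.39). With the marker scaling 0 of these 16 genes were lower, beside 45 of all 14084.

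Genes that carry the signal from the receptors were close to the background, with 6 of 40 higher and 4 lower (15% and 10%) and a median of 0.00. *Plcg1* (0.42) and *Fyn* (0.36), which bind the phosphorylated receptors, were the largest called rises, and the adaptor gene *Gab1* (-0.46), *Prkca* (-0.27) and *Akt1* (-0.22) the largest falls. In the remaining 30 genes, among them *Grb2*, *Shc1*, *Src*, *Ptpn11* and *Pik3r1*, no change passed the threshold. Without WT replicate 3, 2 genes of this list were called lower in place of 4, and with the marker scaling 27 were higher and 0 lower, beside 8367 and 45 of all 14084 genes.

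Genes that restrain receptor signalling had 7 of 24 higher and 3 lower (29.2% and 12.5%, beside 17.7% and 12.5% of all genes tested) with a median of 0.08, and 19 higher and 0 lower with the marker scaling. The phosphatase genes *Dusp1* (1.31) and *Dusp5* (0.80) and the adaptor gene *Sh2b3* (1.14) rose most, and *Spry1* (-0.49), *Grb10* (-0.40) and the phosphatase gene *Acp1* (-0.29) fell most. *Dusp1* had FPKM values of 14.6, 9.22 and 8.09 in KO replicates 1, 2 and 3 and of 3.73 to 4.52 in the libraries labelled WT, so KO replicate 1, which was highest for *Pdgfa*, was highest here too. The receptor ubiquitin ligase gene *Cbl* was among those higher, and *Cblb* and *Rasa1* did not pass the test.

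Growth factor early response genes had 5 of 16 higher and 3 lower, beside 17.7% and 12.5% of all genes tested, and 11 higher and 0 lower with the marker scaling. *Fosl1* (2.51), *Fosb* (2.20) and *Ptgs2* (1.80) rose most, with *Fosl1* at 60.7, 28.8 and 34.8 FPKM in KO replicates 1, 2 and 3 and at 6.54 to 7.76 in the libraries labelled WT. *Egr1* (-0.46), *Ccl2* (-0.27) and *Junb* (-0.23) fell, and *Fos* and *Myc* did not pass the test. KO replicate 1 was highest for *Fosl1* and *Ptgs2* as well, and whether this spread and that of *Pdgfa* have one source was not tested.

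Among 12 tested genes of related ligands and receptors, 6 were higher and 3 lower, beside 17.7% and 12.5% of all genes tested, and with the marker scaling 0 were lower. *Kdr* (4.23), *Kitl* (3.16) and *Pgf* (2.98), which encode a VEGF receptor, the KIT ligand and placental growth factor, were the largest rises, and *Vegfa* (-0.41), *Csf1r* (-0.40) and *Csf1* (-0.35) the largest falls. *Pgf*, a structural relative of the PDGF chains, rose from 3.99 to 5.33 FPKM to 34.3 to 49.0 FPKM, a far larger change than that of any PDGF gene. *Pdgfra* and *Kdr*, which lie on the same stretch of chromosome 5 with *Kit* between them, had log2 fold changes of opposite sign except under the marker scaling, and *Kit* did not pass the test (-0.33, edgeR adjusted p = 0.0795).

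**Figure D4:**
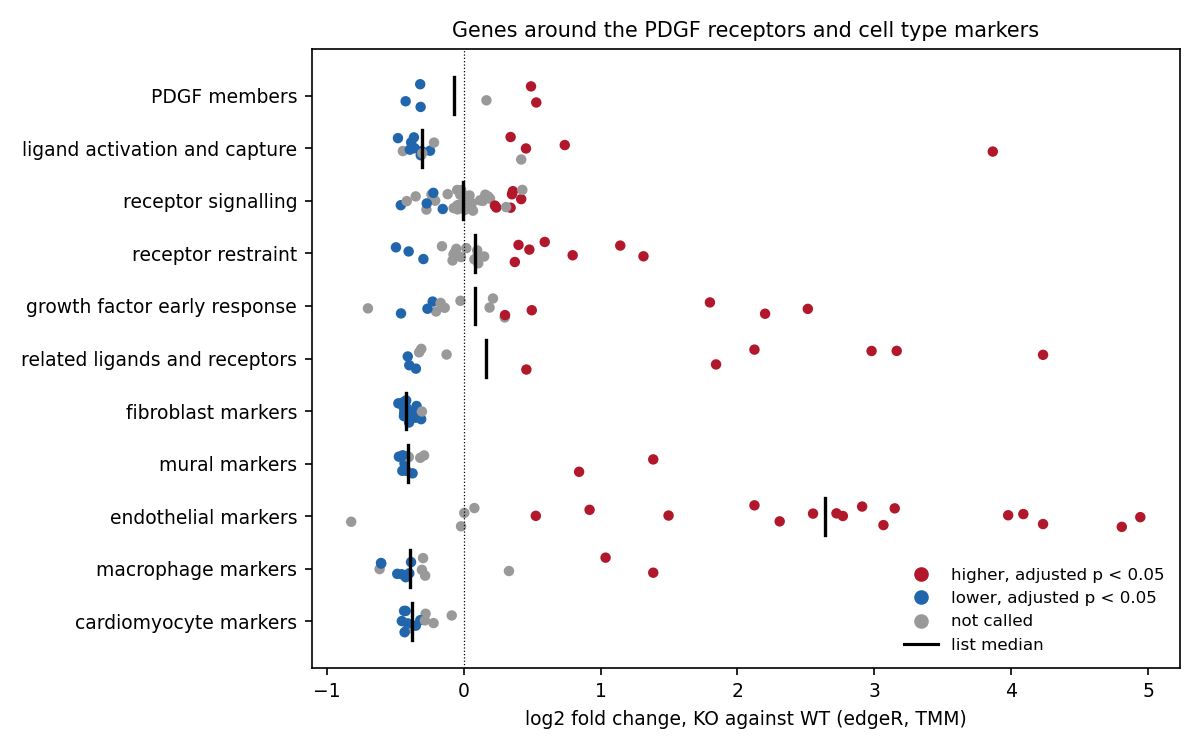
Log2 fold change (edgeR, TMM) of every tested gene in the PDGF family, in the lists around it and in the marker lists of 5 cell types, libraries labelled KO against those labelled WT. Points are genes, red or blue where the adjusted p was under 0.05, and black lines are list medians, which are -0.42 for fibroblast, -0.41 for mural and 2.64 for endothelial markers.

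Genes within 500 kb of a member, by the lowest coordinate of each, were read to see whether the members moved with their surroundings. Of 53 tested neighbours, 12 were higher and 6 lower, beside 17.7% and 12.5% of all genes tested, and of the 24 within 250 kb 7 were higher and 5 lower. The 2 tested neighbours of *Pdgfra*, *Chic2* and *Kit*, did not pass the test, and *Pdgfc* and *Pdgfd* had no tested neighbour. Near *Pdgfa*, *Gpr146* was higher (1.94) and *Fam20c* lower (-0.48), and near *Pdgfb*, *Nptxr* was higher (1.74) and *Mgat3* lower (-0.80). *Enthd1*, 456 kb from *Pdgfb*, had 48, 14 and 38 counts in the libraries labelled KO and 0 in each library labelled WT. It is among the 12 called higher, but it passed the filter on low counts only through the libraries labelled KO. Near *Pdgfrb*, *Csf1r* and *Arsi* (-0.67) were lower like the member, and 2 of the 13 neighbours were higher.

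The profile over the 6 libraries that lay closest to each member was found among 11284 candidates (mean FPKM 1 or above), by the root mean square difference of centred log2 CPM. For *Pdgfa* the closest were *Lrpprc* (0.020) and *Med1* (0.038), and for *Pdgfb* they were *Ctbs* (0.015) and *Cdca2* (0.026). For *Pdgfc* they were *Upf3a* (0.029) and *Tfpi2* (0.037), and for *Pdgfd* *Recql5* (0.025) and *Vps13a* (0.033). For *Pdgfra* they were *Plagl1* (0.027) and *Capn15* (0.029), and for *Pdgfrb* the fibroblast matrix gene *Fndc1* (0.020) and *Gas1* (0.024). The median distance over all candidates was 0.19 to 0.32, depending on the member.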

How the data were processed

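Whole-number counts and FPKM values for each gene and library were deposited by the authors. Per the paper's methods, 150 bp paired-end reads were mapped to mm10 with HISAT2, and the submitters' processing notes also name edgeR and GRCm38.p4. The counting tool, annotation release and strand setting are not given in the sources used here. The deposited FPKM were the counts divided by a fixed gene length and by the library's count total (the implied length of a gene varied between libraries by a relative 7.8e-04 or less).

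The 6 libraries entered one quasi-likelihood fit (edgeR 4.0.16 under R 4.3.3, with filterByExpr and TMM, glmQLFTest, no covariate) with Benjamini-Hochberg adjustment over 14084 genes, and every adjusted p for a single gene comes from this fit unless another setting is named. The biological coefficient of variation was 10.9%, and pairs of replicates differed in 22.4% to 31.8% of genes at an unadjusted p of 0.05, so none was a copy of another. That comparison allows for counting error only, so it does not show that the libraries came from different mice. Tests were checked on simulated data with changes larger than those of the members, so the check does not cover effects of their size. There edgeR recovered 88.5% of the changed genes, and 4.84% of its calls were false. The false share was 9.05% for DESeq2 and 3.87% for limma. Log2 fold changes are KO against WT. Ratios were formed from FPKM within a library and compared by exact two-sided permutation tests. As alternatives, the filter was dropped or set at 1 CPM on average, scaling used library size, upper quartile or marker genes, DESeq2 1.42.0 or limma 3.58.1 (pseudocount 1 or 0.1 on FPKM, log2) replaced the fit, replicate number entered as a block, and libraries were left out in turn.

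The members and gene lists were chosen with earlier results of these data known. Named are all members, the 3 largest called rises and falls of each pathway list, ligand and receptor partners, the 3 most abundant genes of each marker list, the largest changes among neighbours and the 2 closest profiles. Genes named beyond this rule (*Grb2*, *Shc1*, *Src*, *Ptpn11*, *Pik3r1*, *Cbl*, *Cblb*, *Rasa1*, *Fos*, *Myc*, *Mcam*, *Abcc9*, *Rgs5*, *Kcnj8*, *Higd1b*, *Vtn*, *Eng*, *Cldn5*, *Ptprb*, *Sox17*, *Gp5*, *Gp1ba*, *Itga2b*, *Ppbp*, *Gp1bb*, *Cd68*, *Mertk*, *Lck*, *Mbp* and *Kit*) were chosen after their values were seen. Some genes that the rule names are not reported here. Figures were drawn with matplotlib 3.10.9.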

Additional observations from a re-analysis of the deposited data

How the results depend on the processing

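*Pdgfa* and *Pdgfb* kept their direction and call under all 15 alternatives, and *Pdgfra* and *Pdgfrb* under the 14 other than marker scaling. Marker scaling moved *Pdgfc* to 0.074, *Pdgfra* to 0.073, *Pdgfrb* to -0.035, *Pdgfd* to 0.56, *Pdgfa* to 0.92 and *Pdgfb* to 0.88, and by its construction raises the median over all tested genes by 0.39. Under it 0 genes were lower in the lists of ligand activation, receptor signalling, receptor restraint, early response and related genes, and 27, 19 and 11 were higher in receptor signalling, restraint and early response, while 8367 of all 14084 genes were higher and 45 lower. The call of *Pdgfc* was lost with DESeq2 (-0.31), library size (-0.28), limma on log2(FPKM + 1) (-0.23) and log2(FPKM + 0.1) (-0.28). The cause in these settings was not tested. The call was also lost in 5 of the 6 fits without a library, which have fewer samples. In those 5 the value ran from -0.34 (without KO replicate 2) to -0.21 (without KO replicate 1). The fit without KO replicate 3 kept the call, with a value of -0.38. Leaving out a library put the count of receptor signalling genes lower between 2 and 6.

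The replicate number as a block moved *Pdgfc* to -0.32 (adjusted p = 0.0665 from edgeR) and changed no other member's call. Libraries with the same number did not deviate together (correlation over genes 0.0021, 0.0032 and 0.035), so the numbers do not pair them. With the block, 2316 genes were higher and 1591 lower, against 2488 and 1760 without it. With upper quartile scaling 2210 were higher and 2263 lower.

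With the mean of log2 markers, the ratio of *Pdgfrb* to mural markers was -0.25 and that of *Pdgfb* to endothelial markers -1.74 on the log2 scale. Within 250 kb, 7 of 24 neighbours were higher and 5 lower, larger shares than within 500 kb or over all genes. The limits from a count of 0 cover counting error only.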
